A study of Homo sapiens with 12 samples.

Results

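The comparison described here set 3 RNA-sequencing libraries of MV4-11 cells treated with BSJ-03-123 against 3 libraries of the same cells treated with palbociclib, out of 12 libraries in the series. All tested genes were members: 14214 of the 58051 genes in the deposited count table, chosen only by having enough counts. MV4-11 is an established line from a human acute myeloid leukaemia, with a rearranged KMT2A gene and a duplication within FLT3. Both compounds were given at 200 nM for 6 h, so 1 pair of compounds was compared at matched dose and time, with p-values adjusted over genes. The side values come from 3 libraries of vehicle (0.1% DMSO) and 3 of YKL-06-102 (200 nM, 6 h). Palbociclib inhibits the catalytic activity of the kinases CDK4 and CDK6. BSJ-03-123 is described by the submitters as a phthalimide conjugate that degrades CDK6, and YKL-06-102 likewise as directed at CDK6. Neither code-named compound's structure is given in the sources used here.

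CDK4 and CDK6, bound to a D-type cyclin, phosphorylate the retinoblastoma protein RB1 and its relatives, which frees E2F transcription factors to switch on genes for DNA replication. An inhibitor such as palbociclib blocks the kinase activity and leaves the protein in place. A phthalimide degrader instead brings its target to cereblon (CRBN), the substrate receptor of a ubiquitin ligase, so that the target is ubiquitinated and destroyed by the proteasome. In myeloid leukaemia cells CDK6 has also been described as a cofactor at chromatin, independent of its kinase activity. The comparison bears on whether loss of the protein and loss of its activity give the same transcriptome, but cannot isolate that question. Palbociclib also inhibits CDK4, and an equal dose need not mean equal action on the target. Loss of the CDK6 protein cannot be told apart here from these other differences between the compounds. Protein levels were not analysed here, and the data are of 1 cell line at 1 dose and 1 time. Replicates are not stated to be separate cultures, and p-values therefore cover library-to-library spread that may be only technical. In bulk RNA, fewer cells of a type (or of a cell-cycle phase) and less RNA per cell cannot be told apart.

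The 6 libraries held between 19803323 and 24289426 counts. Counts of 2 replicates of the same compound differed by 1.75 to 2.62 times the variance that sampling alone gives, so no 2 libraries were treated as 1. Identity markers of the line were present in all 6 libraries, with CD33 at 178 to 192 CPM (counts scaled to the size of each library) and FLT3 at 416 to 464 CPM. The summed level of these markers was 2862 to 2887 CPM with BSJ-03-123 and 2923 to 2958 CPM with palbociclib. Of 15 tested, 3 lay higher with BSJ-03-123. Its libraries lay below all palbociclib libraries in 4 (7.2% of all genes) and above in 0 (8.01% of all genes). Markers of other cell types were the lymphoid (8 tested), erythroid and megakaryocyte (6 tested) and stromal and epithelial (6 tested) lists. None of their tested members was called at an adjusted p under 0.05, where 0.155% of all genes were. The median log2 differences of the lists were −0.12, 0.04 and −0.05. The BSJ-03-123 libraries lay below all palbociclib libraries in 2, 1 and 1 members (7.2% of all genes) and above them in 0 (8.01% of all genes). The summed level of the lymphoid markers was 53.9 to 57.4 CPM with BSJ-03-123 and 52.9 to 57.2 CPM with palbociclib, that of the erythroid and megakaryocyte markers 50.8 to 51.1 and 49.8 to 54.0 CPM, and that of the stromal and epithelial markers 586 to 610 and 617 to 639 CPM. Among these sums, only those of the stromal and epithelial markers did not overlap between the compounds. Of these lists, 4, 9 and 8 of 20 members each had no count in any of the 6 libraries.

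The transcriptomes under the degrader and the inhibitor differed little, and in the main edgeR fit the genes past the adjusted threshold lay on 1 side. With edgeR's quasi-likelihood test and Benjamini-Hochberg adjustment over all tested genes, 22 genes were higher with BSJ-03-123 than with palbociclib and 0 were lower, which is 0.155% of the genes tested. At an unadjusted p under 0.05, 681 genes lay higher and 517 lower. By limma-voom 17 genes passed upwards and 0 downwards, and by DESeq2 38 upwards and 5 downwards. The median log2 difference over all genes was 0.00 (quartiles −0.06 and 0.06), and 50.1% of genes lay above 0. Lower genes were also called in other fits, among them 22 beside 42 higher with no filter on low counts and 14 beside 61 higher when only the 6 libraries were fitted. The 22 differences ran from 1.13-fold to 1.79-fold. Of the 22 genes, 2 passed 1.5-fold and 0 passed 2-fold. In all 22 genes the 3 BSJ-03-123 libraries lay above all 3 palbociclib libraries, a separation that 8.01% of all tested genes had, while 7.2% had the opposite one. The count fell when single libraries were left out, to 12, 5 and 12 genes higher without BSJ-03-123 replicates 1, 2 and 3, and to 3, 5 and 13 without palbociclib replicates 1, 2 and 3. Without DMSO replicate 2, which is in neither compared group but enters the filter, the scaling and the shared spread, it was 92 higher and 24 lower among 14374 tested genes. ZNF692, HSPA1A and MCM4 were called under all 17 alternatives tried, and SERPINH1 under 16, being lost without palbociclib replicate 1. Every other called gene kept its call in at most 3 of the 6 fits that left out 1 compared library. HELLS, TCF19, CCNE2, MCM2, DNAJA4, FADS1 and TET3 kept it in 1 of the 6, and WDR76, MCM5, TSPAN14 and DSCC1 in 0.

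**Figure D1:**
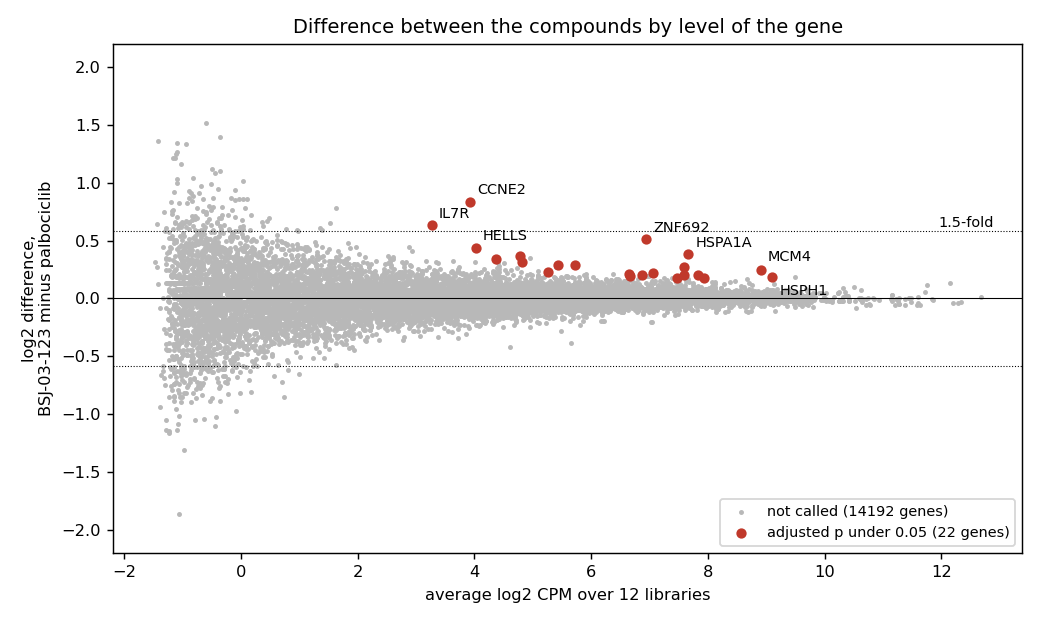
Each point is 1 of the 14214 tested genes, with its average log2 CPM over the 12 libraries on the x axis and the log2 difference, BSJ-03-123 minus palbociclib, on the y axis; dotted lines mark 1.5-fold in either direction. The 22 genes past the adjusted threshold (red) all lie above 0, and of them IL7R and CCNE2 pass the upper 1.5-fold line.

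Most genes were measured tightly enough to bound the difference. Among 10368 genes whose average log2 CPM was 2 or more, the 95% interval of the difference lay within 1.5-fold in either direction for 99.77% and within 1.1-fold for 40.85%. For 24 of them the interval reached past 1.5-fold. Over all 14214 tested genes the share within 1.5-fold was 81.12%, so for most of the other genes, which had low counts, a difference of that size was not excluded.

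The largest group among the 22 was genes of DNA replication and the G1/S transition, which lay below DMSO with both compounds and lowest with palbociclib. E2F factors control many of these genes. Over 4 lists of E2F target genes with 84 members, all tested, 9 were called higher with BSJ-03-123 (10.7%, against 0.155% of all genes) and 0 lower. The median log2 difference was 0.10, against 0.00 over all genes. In 80 of the 84 genes the difference was above 0. The 3 BSJ-03-123 libraries lay above the 3 palbociclib libraries in 41 of the 84 (48.8%, against 8.01% of all genes) and below them in 0. These lists were chosen with earlier results of these data known, so their direction is a description.

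The origin licensing and helicase list stood highest among the 4, with a median log2 difference of 0.13 over 25 genes and 5 called. Its summed level was 1592 to 1606 CPM in the BSJ-03-123 libraries and 1439 to 1445 CPM in the palbociclib libraries. All 25 members were lower than DMSO with each compound, where 15.7% of all genes were lower with BSJ-03-123 and 17.6% with palbociclib. Their median log2 change against DMSO was −1.42 with BSJ-03-123 and −1.57 with palbociclib. These changes share the DMSO libraries and are given side by side.

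MCM4, a subunit of the replicative helicase MCM2-7, had 268, 257 and 265 CPM in the 3 BSJ-03-123 libraries and 225, 223 and 219 CPM with palbociclib. DMSO libraries had 998 to 1028 CPM, so both compounds left the gene far below vehicle, and the palbociclib libraries were the lower of the 2 sets with no overlap. The compounds differed by 0.24 ± 0.03 on the log2 scale (SE, adjusted p = 6.48e-05, edgeR). MCM2 and MCM5, from the same ring, differed by 0.20 each (adjusted p = 0.0171 and 0.0296, edgeR). MCM2 had 128, 127 and 126 CPM against 108, 109 and 115, and MCM5 had 112, 115 and 114 against 97.6, 98.3 and 101. MCM6 leaned the same way by 0.17 without passing the test in the main fit (adjusted p = 0.0685, edgeR). CDC6, which loads the helicase on origins, had 32.1, 31.0 and 29.4 CPM with BSJ-03-123 and 25.6, 23.8 and 26.3 CPM with palbociclib. Every BSJ-03-123 library was above every palbociclib library, and the log2 difference was 0.29 ± 0.05 (SE, adjusted p = 0.0142, edgeR). DSCC1, a subunit of a clamp-loading complex, had 19.8, 18.3 and 20.5 CPM against 15.7, 16.0 and 15.4, a difference of 0.31 ± 0.07 (SE, adjusted p = 0.0448, edgeR). The calls of DSCC1 and MCM5 were lost in limma-voom and without any 1 of the 6 libraries, and that of DSCC1 also with library totals, a minimum count of 50 and a replicate block.

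Of the 25 genes for polymerases, the sliding clamp and nucleotide supply, 2 were called, with a list median of 0.07. TYMS makes thymidylate, and had 63.9, 62.6 and 61.4 CPM with BSJ-03-123 and 54.2, 52.5 and 55.3 CPM with palbociclib. RRM2 is the small subunit of ribonucleotide reductase, and had 127, 124 and 122 CPM against 108, 110.3 and 113. Neither gene's groups overlapped, and the log2 differences were 0.21 ± 0.04 and 0.18 ± 0.03 (SE, adjusted p = 0.0121 and 0.014, edgeR).

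The chromatin list had 2 called members of 12 and a median of 0.09. HELLS, a helicase of the SNF2 family that supports DNA methylation, had 9.63, 10.4 and 11.1 CPM with BSJ-03-123 and 7.88, 7.33 and 7.76 CPM with palbociclib, and 31.4 to 35.6 CPM in DMSO. The BSJ-03-123 libraries were higher with no overlap, and the log2 difference was 0.44 ± 0.09 (SE, adjusted p = 0.0346, edgeR). That call was lost in limma-voom and when any of the 6 libraries but BSJ-03-123 replicate 1 was left out. WDR76, a WD-repeat protein, had 13.0, 13.5 and 13.1 CPM against 10.9, 10.6 and 9.11, a difference of 0.36 ± 0.07 (SE, adjusted p = 0.0314, edgeR), a call lost in limma-voom and without any 1 of the 6 libraries. The checkpoint and repair list had 0 called members of 22, with a median of 0.12. In it CLSPN, an adaptor of the replication checkpoint, differed by 0.27 without passing the test in the main fit (adjusted p = 0.0714, edgeR). In the list of G2/M and mitosis genes, which E2F factors control less directly, 0 of 69 were called, against 0.155% of all genes. The list's median was 0.04, and 51 of the 69 differences were above 0. The BSJ-03-123 libraries lay above all palbociclib libraries in 19 (27.5%, against 8.01% of all genes) and below them in 4 (7.2% of all genes). All 69 were lower than DMSO with each compound, against 15.7% of all genes with BSJ-03-123 and 17.6% with palbociclib.

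The sequence before the RefSeq start of HELLS is shown because it held 2 matches to letters that E2F factors bind, both before the start. MCM2 also held 2, both after its start. Promoters were the 250 bases before to 50 bases after the RefSeq start (GRCh38.p14), and both strands were searched for TTTCCCGC, TTTGGCGC, TTTCGCGC or TTTGCCGC. Capitals mark the matches, and the stretch is chr10:94545538-94545787 on the plus strand.
HELLS: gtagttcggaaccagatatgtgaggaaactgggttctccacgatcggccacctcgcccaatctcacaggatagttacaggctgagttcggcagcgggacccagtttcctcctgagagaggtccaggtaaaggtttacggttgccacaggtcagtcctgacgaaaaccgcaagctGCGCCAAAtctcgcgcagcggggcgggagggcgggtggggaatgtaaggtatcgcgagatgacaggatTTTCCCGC

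Of the 22 called genes, 17 matched an entry of the promoter table, and 4 of the 17 (23.5%) held such letters: HELLS, TYMS, CDC6 and MCM2. All 4 belong to the E2F lists, of whose called members 5 were in the table. The letters were in 40.8% of the 71 promoters matched to the 4 lists, in 5.54% of the 10208 matched to tested genes and in 3.33% of all 27305. The shorter letters CCAAT, which NF-Y binds, were in 5 of the 17 (29.4%), against 36.6% of tested genes. The CHR letters of G2/M promoters (TTTGAA or TTCGAA) were in 1 of the 17 (5.88%), against 11.2%. A match is a description of the window and shows no binding.

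**Figure D2:**
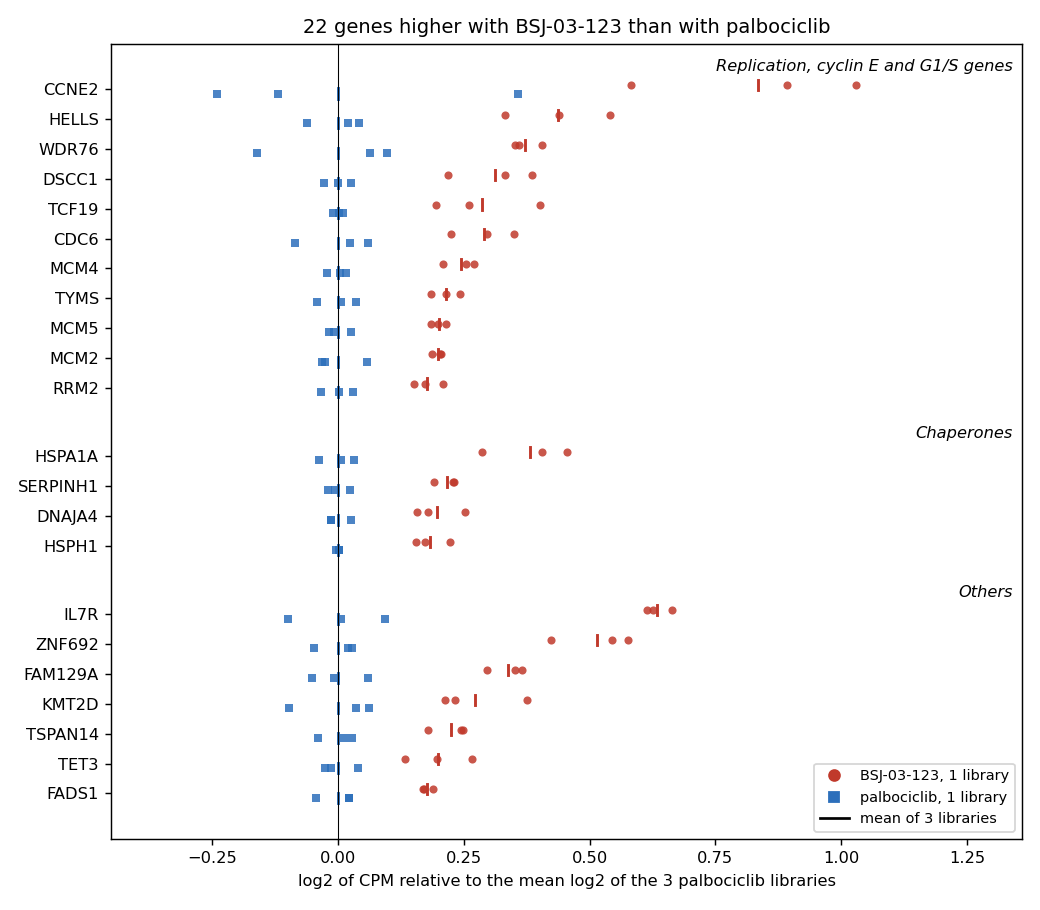
Each of the 22 called genes is a row, with the log2 CPM of each BSJ-03-123 library (circles) and each palbociclib library (squares) relative to the mean log2 of the 3 palbociclib libraries on the x axis; vertical ticks are means of 3 libraries. No row has overlapping groups, the replication and G1/S genes form the longest block, and CCNE2 shows the widest spread between replicates.

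In the module of cyclins, kinases, inhibitors and RB and E2F factors, 1 of 38 tested genes was called (2.63%, against 0.155% of all genes). The difference was above 0 in 30 of the 38. The BSJ-03-123 libraries lay above all palbociclib libraries in 12 (31.6%, against 8.01% of all genes) and below them in 1 (7.2% of all genes). CCNE2, cyclin E2, had 3.56, 2.87 and 3.92 CPM with BSJ-03-123, 1.63, 1.77 and 2.46 CPM with palbociclib, and 42.0 to 47.5 CPM in DMSO. The groups did not overlap, though BSJ-03-123 replicate 2 and palbociclib replicate 3 came close. The log2 difference was 0.84 ± 0.17 (SE, adjusted p = 0.0346, edgeR), the highest of the 22. The gene overlaps INTS8, which has more counts, and the strand setting of the counting is not stated, so reads of the 2 genes may be mixed. The same limit holds for other named genes, among them TYMS with ENOSF1, MCM2 with TPRA1 and CRBN with TRNT1. The call of CCNE2 was lost in limma-voom and when any of the 6 libraries but palbociclib replicate 3 was left out. CCNE1, the other cyclin E gene, had 11.7, 11.0 and 12.8 CPM against 10.9, 11.2 and 11.3, and its difference of 0.09 had an interval of −0.08 to 0.26. TCF19, a G1/S-regulated nuclear factor outside the lists, had 21.2, 22.2 and 24.4 CPM with BSJ-03-123 and 18.4, 18.5 and 18.6 CPM with palbociclib, with a difference of 0.29 ± 0.06 (SE, adjusted p = 0.0346, edgeR). Its call was lost in limma-voom and when any of the 6 libraries but BSJ-03-123 replicate 1 was left out.

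CDK6 itself, the named target, did not differ beyond its error at the RNA level. It had 498, 524 and 506 CPM with BSJ-03-123 and 498, 478 and 496 CPM with palbociclib. The log2 difference was 0.05 (95% interval −0.02 to 0.13, adjusted p = 0.717, edgeR). RNA does not report the protein that a degrader removes. CDK4 differed by 0.03 (interval −0.03 to 0.10), RB1 by −0.06 (−0.15 to 0.02) and E2F1 by 0.12 (−0.01 to 0.26). The D-type cyclins CCND2 and CCND3 differed by 0.08 each, with intervals of −0.01 to 0.17 and −0.00 to 0.16. The CDK inhibitor CDKN1A differed by 0.01 (−0.10 to 0.11) and MYC by 0.04 (−0.03 to 0.11). In CDK6, E2F1, CCND2 and CCND3 the BSJ-03-123 libraries lay above all palbociclib libraries, while the groups overlapped in CDK4, RB1, CDKN1A and MYC. Of 19 genes described as targets of CDK6 as a chromatin cofactor, 0 were called and the median was 0.01. Since 0.155% of all genes were called, a count of 0 in so short a list carries little information. The BSJ-03-123 libraries lay above all palbociclib libraries in 3 of the 19 (15.8%, against 8.01% of all genes). They lay below them in 1 (7.2% of all genes).

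The second group among the 22 was chaperones. Heat shock proteins refold or hold damaged proteins, and the transcription factor HSF1 drives many of their genes through repeats of the letters TTC and GAA. Of 45 tested genes for heat shock proteins and cochaperones, 3 were called higher with BSJ-03-123 (6.67%, against 0.155% of all genes) and 0 lower. The list's median difference was 0.04. The BSJ-03-123 libraries lay above all palbociclib libraries in 17 of the 45 (37.8%, against 8.01% of all genes) and below them in 0 (7.2% of all genes). The list's summed level was 20070 to 20690 CPM with BSJ-03-123 and 19270 to 19490 CPM with palbociclib. As with the replication genes, the level with palbociclib was the one further from DMSO. The list's median log2 change against DMSO was −0.14 with BSJ-03-123 and −0.20 with palbociclib. Of the 45, 26 and 29 were called lower, against 15.7% and 17.6% of all genes.

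HSPA1A, the inducible HSP70, had 168, 182 and 188 CPM with BSJ-03-123 and 134, 138 and 140.4 CPM with palbociclib. The DMSO libraries had 273 to 305 CPM, so both compounds gave a lower level than vehicle and palbociclib gave the lower of the 2, without overlap. On the log2 scale the difference was 0.39 ± 0.04 (SE, adjusted p = 6.06e-06, edgeR). HSPA1B, a near-identical copy, can share reads with it, and differed by 0.26 without passing the test (adjusted p = 0.118, edgeR). Summed over both copies the levels were 187, 201 and 206 CPM with BSJ-03-123 and 148, 154 and 157 CPM with palbociclib, so the separation did not depend on how reads were split between them.

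HSPH1, an HSP110 nucleotide exchange factor for HSP70, had 539, 565 and 546 CPM against 483, 485 and 485. DNAJA4, an HSP40 cochaperone, had 101, 103 and 108 CPM against 92.2, 89.8 and 89.8. Both had groups that did not overlap, with log2 differences of 0.18 ± 0.03 and 0.20 ± 0.04 (SE, adjusted p = 0.0047 and 0.014, edgeR). HSPA8, the constitutive HSC70, and HSP90AA1 differed by 0.13 and 0.11, called by DESeq2 (adjusted p = 0.0141 and 0.0124) and not in the main edgeR fit (adjusted p = 0.122 and 0.183). HSF1 differed by 0.03 (interval −0.05 to 0.10) and DNAJB1 by 0.05 (−0.03 to 0.13). Among the 34 proteasome subunits, the other arm of protein quality control, 0 were called (0.155% of all genes were) and the median was −0.01.

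SERPINH1, a collagen chaperone of the endoplasmic reticulum also named HSP47, is not on the heat shock list. It had 111, 109 and 111 CPM with BSJ-03-123 and 93.7, 96.6 and 94.7 CPM with palbociclib. YKL-06-102 gave 214 to 218 CPM and DMSO 102 to 111 CPM, so that here palbociclib lay below vehicle while BSJ-03-123 lay within or just above its range. The difference was 0.22 ± 0.04 on the log2 scale (SE, adjusted p = 0.00524, edgeR). Its promoter and that of IL7R were the 2 among the 17 with the heat shock letters TTCNNGAA (11.8%, against 6.27% of tested genes and 15% of 40 promoters of the heat shock list). The match in SERPINH1 is shown in capitals. The promoter of HSPA1A held no TTCNNGAA but had CCAAT letters (capitals, ATTGG on the strand shown). It does hold GAA before TTC, 2 bases apart, an order that was not searched for. Heat shock letters are therefore not excluded there, and the shares above leave out that order. Both stretches are given because these genes led the chaperones. They lie at chr11:75562166-75562195 and chr6:31815293-31815463, both on the plus strand.
SERPINH1: cgtttccaactTTCCAGAAgtttctcggga
HSPA1A: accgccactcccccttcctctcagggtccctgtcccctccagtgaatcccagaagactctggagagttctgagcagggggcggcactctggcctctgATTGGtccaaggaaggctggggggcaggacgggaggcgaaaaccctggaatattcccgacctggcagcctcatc

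The gene with the smallest p was ZNF692, which encodes a zinc finger protein reported as a substrate that cereblon binds in the presence of phthalimide drugs. It had 130.1, 117 and 127 CPM with BSJ-03-123 and 89.0, 88.5 and 84.5 CPM with palbociclib. The palbociclib libraries lay in the range of DMSO (82.5 to 89.5 CPM), the BSJ-03-123 libraries above both, and the YKL-06-102 libraries highest at 181 to 202 CPM. The log2 difference was 0.51 ± 0.04 (SE, 95% interval 0.42 to 0.61, adjusted p = 9.1e-08, edgeR). The gene lies on the minus strand of chromosome 1, from 248850006 to 248859144 (GRCh38, GENCODE 29), and no annotated gene with counts overlaps it. The stretch before its start, chr1:248859145-248859335, written on the minus strand, is shown because the gene stood first, and it held none of the letters searched for.
ZNF692: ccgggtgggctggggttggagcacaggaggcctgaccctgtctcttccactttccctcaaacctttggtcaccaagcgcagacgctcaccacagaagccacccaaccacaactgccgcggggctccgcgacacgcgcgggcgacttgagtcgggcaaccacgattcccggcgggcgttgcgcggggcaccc

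Cereblon works within a ligase with DDB1 and CUL4 proteins, and its drug-induced substrates are mostly zinc finger proteins. Of 37 tested genes for the ligase and its reported substrates, ZNF692 was the 1 called, and the median was 0.00. IKZF1, a lymphoid and myeloid zinc finger factor and a substrate, had 389, 425 and 427 CPM with BSJ-03-123 and 382, 375 and 375 CPM with palbociclib. Its groups did not overlap but BSJ-03-123 replicate 1 lay close to the palbociclib libraries. The log2 difference of 0.13 ± 0.03 (SE) missed the threshold in the main edgeR fit (adjusted p = 0.111) and passed it in DESeq2 (adjusted p = 0.0269). CRBN differed by −0.09 (interval −0.22 to 0.04), GSPT1 by 0.01 (−0.05 to 0.08) and CSNK1A1 by 0.05 (−0.03 to 0.13).

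IL7R, the receptor chain for interleukin-7, had 7.67, 7.94 and 7.74 CPM with BSJ-03-123 and 5.04, 4.68 and 5.35 CPM with palbociclib. DMSO libraries had 2.93 to 4.02 CPM and YKL-06-102 libraries 19.1 to 22.2 CPM, so the 4 groups stood in the order DMSO, palbociclib, BSJ-03-123 and YKL-06-102 with no overlap. The log2 difference was 0.63 ± 0.11 (SE, adjusted p = 0.00691, edgeR). In the list of IL7R and other cytokine receptors, IL7R was the 1 gene called of 29, and the median was −0.03.

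**Figure D3:**
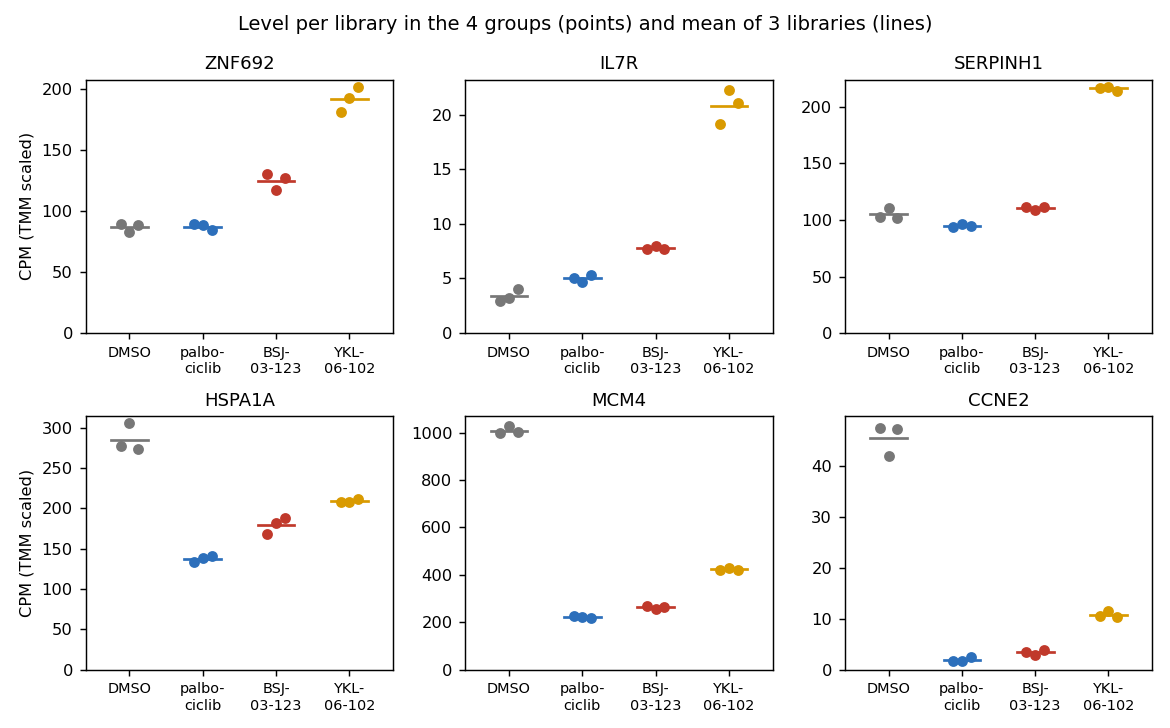
Points are the CPM of each library and lines the mean of 3 libraries in the 4 groups, for 6 of the called genes, on axes that start at 0. ZNF692, IL7R and SERPINH1 are highest with YKL-06-102, while HSPA1A, MCM4 and CCNE2 are highest in DMSO, and in these 6 the BSJ-03-123 libraries lie between the palbociclib and the YKL-06-102 libraries, an order that not all 22 called genes have.

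Not every called gene had BSJ-03-123 between the other two compounds. HSPH1 had 492 to 517 CPM with YKL-06-102 and lay higher with BSJ-03-123 by 0.13 on the log2 scale (adjusted p = 0.00176, edgeR), and DNAJA4 had 87.8 to 93.5 CPM and lay higher by 0.19 (adjusted p = 0.000244, edgeR). KMT2D had 167 to 186 CPM with YKL-06-102 and TET3 109 to 118 CPM, and both were higher with BSJ-03-123, by 0.34 and 0.16 (adjusted p = 6.67e-06 and 0.00364, edgeR). FAM129A had 18.6 to 20.2 CPM with YKL-06-102 and a difference of 0.16 that missed the threshold (adjusted p = 0.0568, edgeR).

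The remaining called genes fell in no common list. FAM129A, a stress-associated cytoplasmic protein also named NIBAN1, had 20.9, 21.7 and 21.9 CPM with BSJ-03-123 and 16.9, 17.7 and 16.4 CPM with palbociclib (log2 difference 0.34 ± 0.06 SE, adjusted p = 0.0123, edgeR). FADS1, a fatty acid desaturase, had 206, 204 and 203 CPM against 184, 184 and 175 (0.18 ± 0.03 SE, adjusted p = 0.0123, edgeR), and was the 1 gene called of 32 for cholesterol and fatty acid synthesis. It overlaps FADS2. KMT2D, a histone H3 lysine 4 methyltransferase, and TET3, a 5-methylcytosine dioxygenase, differed by 0.27 ± 0.05 and 0.20 ± 0.04 (SE, adjusted p = 0.0136 and 0.0296, edgeR). KMT2D had 244, 218 and 221 CPM against 196, 176 and 193, and TET3 had 122, 134 and 128 against 114, 109 and 110.2. In both the BSJ-03-123 libraries were above those of DMSO too (164 to 191 and 109 to 118 CPM). Both encode long transcripts, and over 10359 genes with a known length (average log2 CPM at least 2) the top quartile of summed exon length had a median difference of 0.02 against −0.01 in the bottom quartile. Both stayed called when the trend with length was removed, while TSPAN14, a tetraspanin with 37.7, 39.4 and 39.5 CPM against 33.6, 32.4 and 33.9 (0.22 ± 0.05 SE, adjusted p = 0.0416, edgeR), did not. The call of TSPAN14 was also lost in limma-voom, with a replicate block and without any 1 of the 6 libraries.

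Set against DMSO in the same fit, 18 of the 22 were lower with palbociclib and 1 was higher, while 16 were lower with BSJ-03-123 and 4 higher (over all genes 15.6% were higher with palbociclib and 12.4% with BSJ-03-123). Because the palbociclib and BSJ-03-123 libraries also chose the 22, nothing is read from these counts. YKL-06-102 against DMSO compares none of the 6 libraries, though all 12 shared the filter, the scaling and the estimate of spread. There 15 of the 22 were lower (21.3% of all genes), 4 were higher (15.6% of all genes) and 3 were not called.

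The whole transcriptome was also sorted by its response to YKL-06-102 against DMSO, whose libraries are not those of the difference but share its fit. Genes that YKL-06-102 lowered at least 2-fold (165 genes) had a median difference between BSJ-03-123 and palbociclib of 0.08, with 62.4% above 0. Genes it raised at least 2-fold (220 genes) had a median of 0.10, with 66.8% above 0. Many members of both classes had low counts. An average log2 CPM of at least 2 was reached by 79 lowered and 73 raised genes, with medians of 0.0997 and 0.103. In the large class of other genes (12011) the median was −0.00 and 48.3% lay above 0. The lowered class held 10 of the 22 called genes, which is 6.06% of its 165 genes, against 0.155% of all genes. The raised class held 3 called genes among its 220, which were ZNF692, SERPINH1 and IL7R. In the lowered class the BSJ-03-123 libraries were above all palbociclib libraries in 24.2% of genes and below them in 4.85%. In the raised class these shares were 15.5% and 2.27%, against 6.61% and 7.48% of other genes. Of the 165 lowered genes, 33 belong to the 4 E2F lists, and over the 132 outside them the median was 0.03. The raised class held 0 members of those lists. Quartiles of each class spanned 0.

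**Figure D4:**
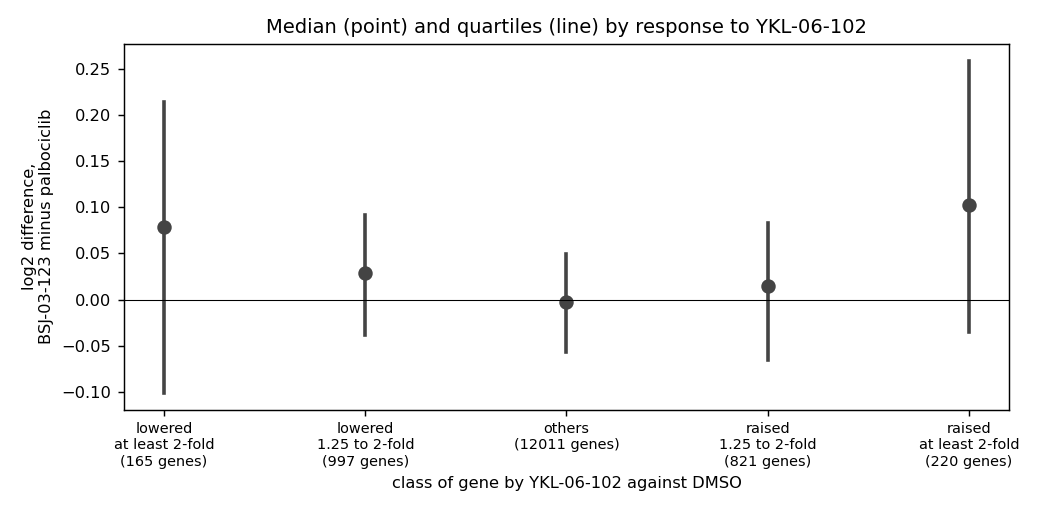
Genes are sorted on the x axis by their change with YKL-06-102 against DMSO, in libraries that the difference does not use; points are the median and lines the quartiles of the log2 difference, BSJ-03-123 minus palbociclib. The median is 0.08 in the class lowered at least 2-fold, −0.00 in the other genes and 0.10 in the class raised at least 2-fold.

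No gene was called lower with BSJ-03-123 in the main edgeR fit or by limma-voom, though DESeq2 called NCKAP1L, TXNIP, LPXN, ENPP2 and PBXIP1. The edgeR fit of the 6 libraries only called 14 genes lower, among them all of these and TDRD7, ST8SIA4 and HBP1. PBXIP1, which binds PBX homeodomain factors, had 49.8, 49.0 and 51.9 CPM with BSJ-03-123 and 56.9, 57.1 and 58.9 CPM with palbociclib, a log2 difference of −0.20 ± 0.04 (SE, adjusted p = 0.0554 in edgeR and 0.0466 in DESeq2). TXNIP, the thioredoxin-interacting protein, had 446, 452 and 443 CPM against 484, 474 and 489, a difference of −0.11 (adjusted p = 0.118 in edgeR and 0.0199 in DESeq2). NCKAP1L, a haematopoietic subunit of the WAVE actin complex, had 425, 428 and 421 CPM against 465, 460 and 452, also a difference of −0.11 (adjusted p = 0.111 in edgeR and 0.0195 in DESeq2). The groups did not overlap in any of these 3. LPXN, an adhesion adaptor, had 131, 132 and 130 CPM against 142, 145 and 167, so palbociclib replicate 3 stood well above the other two. ENPP2, which makes lysophosphatidic acid, had 78.8, 83.6 and 78.1 CPM against 96.4, 92.8 and 85.8. TDRD7, NDRG3, BMF and ST8SIA4 differed by −0.25, −0.23, −0.19 and −0.20 without passing the test in the main fit (adjusted p = 0.0742, 0.102, 0.11 and 0.111, edgeR). HBP1, a repressor of cell-cycle genes, differed by −0.22 (adjusted p = 0.115, edgeR) and overlaps COG5. Against DMSO, TXNIP changed by 0.52 with palbociclib and 0.41 with BSJ-03-123, and PBXIP1 by 0.52 and 0.33. The same palbociclib libraries chose these genes, so nothing is read from those values.

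The other lists held no called gene, where 0.155% of all genes were called, and medians close to that of all genes. The myeloid differentiation list had a median of −0.00 over 33 tested genes, the KMT2A fusion targets −0.01 over 16, the MYC and ribosome biogenesis genes 0.02 over 49 and the p53 targets −0.01 over 25. The interferon-stimulated genes had the lowest median of the lists with at least 12 tested members, −0.05 over 35 genes. In 5 of them the BSJ-03-123 libraries lay below all palbociclib libraries (7.2% of all genes) and in 1 above (8.01% of all genes). The mitochondrially encoded genes had a median of −0.05 over 13, with overlapping groups in all of them.

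**Figure D5:**
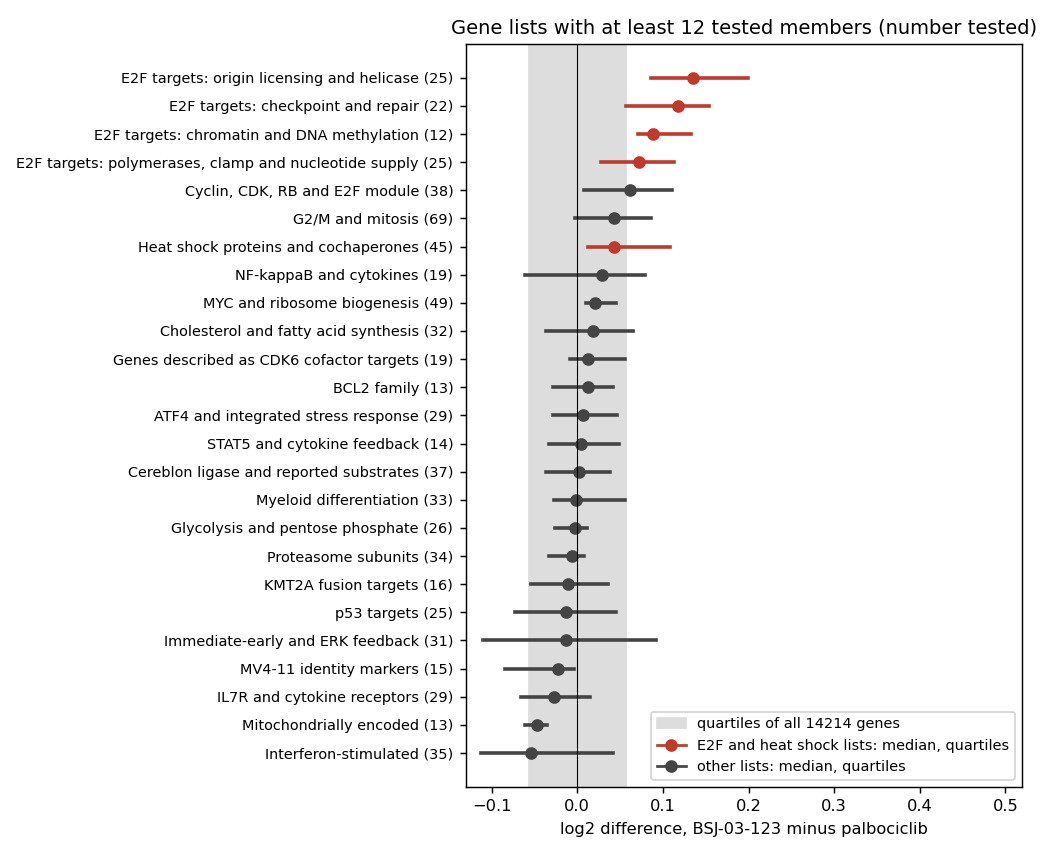
For each gene list with at least 12 tested members, the point is the median and the line spans the quartiles of the log2 difference, BSJ-03-123 minus palbociclib; the grey band spans the quartiles of all 14214 genes. The 4 E2F lists have medians of 0.07 to 0.13 and the cyclin, CDK, RB and E2F module 0.06, to the right of the band, and the heat shock list has 0.04, inside it.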

How the data were processed

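Polyadenylated RNA of 12 MV4-11 libraries (4 groups of 3) was measured with a strand-marking kit, per the labels' protocols. The deposited values are raw read counts per Ensembl gene, not normalized. Per the submitters' processing notes, Trimmomatic 0.36, STAR 2.5.2b, hg38 and HTSeq were used to make them. The strand setting and annotation release were not given in the sources used here. GENCODE 29 named 57447 of 58051 IDs.

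All 12 libraries were fitted with edgeR 4.0.16 in R 4.3.3: filterByExpr (minimum count 10, total 15), TMM scaling, quasi-likelihood test with 8 residual degrees of freedom, 2-sided, and Benjamini-Hochberg adjustment over all tested genes at 0.05. CPM use the TMM factors. Errors and 95% intervals are Wald values. The fit was tested on simulated data. DESeq2 1.42.0 and limma-voom (limma 3.58.1), other scalings and filters, fewer libraries, a replicate block, and GC and length trends were alternatives. Same-numbered libraries did not deviate together (correlations −0.1, 0.02 and −0.08), so numbers were not taken as pairs.

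Members and the 28 gene lists were chosen with earlier results of these data known. Named were all called genes, the 10 of smallest p in each direction at an average log2 CPM of at least 2, up to 10 in each direction called by DESeq2 or limma-voom, a set of cell-cycle and cereblon genes, and list members. Promoter sequences are from RefSeq (GRCh38.p14).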

Additional observations from a re-analysis of the deposited data

How the results depend on the processing

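The count of 22 genes higher and 0 lower with BSJ-03-123 was 38 and 5 with DESeq2, 17 and 0 with limma-voom, 22 and 0 with RLE size factors, 21 and 2 with library totals only, 42 and 22 with no filter on low counts, 21 and 1 at a minimum count of 50, and 61 and 14 when only the 6 libraries were fitted. Leaving out 1 of 7 libraries at a time (the 6 compared and DMSO replicate 2; the others were not left out) gave 3 to 92 higher and 0 to 24 lower, the lowest without palbociclib replicate 1 and the highest without DMSO replicate 2. With the replicate block it was 25 and 1. Added after seeing the data, removal of a GC trend gave 58 and 13 and of a length trend 25 and 4. All 22 genes remained called with DESeq2, RLE, no filter, the 6 libraries only and the GC trend, 21 with library totals, the minimum count of 50 and the length trend, 20 with the replicate block and 15 with limma-voom. The cause of these changes was not tested, and the left-out fits also had fewer samples.

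The median over genes lowered by YKL-06-102, 0.08, was 0.0946 at a minimum count of 50, 0.0997 at an average log2 CPM of at least 2, and 0.078 to 0.0965 without 1 library. That over genes raised by YKL-06-102, 0.10, was 0.0792 in the 6 libraries only and 0.0867 to 0.105 without 1 library. CDKN1A, near 0 throughout, changed sign with no filter (−1.861e-05) and ranged from −0.02611 to 0.05283 without 1 library. Of 731 values for 43 named genes, 575 kept their direction and side of the threshold, 97 lost the call, 54 gained it and 5, all CDKN1A, reversed. Intervals were widest in genes of low count, and 3 libraries a group limit every call.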

Other observations

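Palbociclib replicate 3 stood alone for genes that the aryl hydrocarbon receptor is known to induce, which were chosen after their values were seen. CYP1B1, a xenobiotic-metabolising cytochrome, had 45.5, 45.7 and 99.2 CPM in palbociclib replicates 1, 2 and 3, against 46.0, 48.2 and 49.9 CPM with BSJ-03-123, 47.7 to 51.1 CPM with YKL-06-102 and 38.8 to 41.0 CPM in DMSO. TIPARP, a feedback regulator of the receptor, had 24.9, 23.9 and 42.7 CPM against 22.6, 22.9 and 22.4 with BSJ-03-123, and CYP1A1 had 2.64, 3.40 and 7.33 CPM against 2.96, 2.73 and 3.07. The receptor's repressor AHRR was less apart, with 51.4, 52.4 and 59.6 CPM against 53.6, 52.1 and 55.8, as was NQO1 with 36.7, 37.2 and 41.6 CPM against 37.4, 39.7 and 38.4. None of the 5 differed between the compounds by edgeR (adjusted p of 0.516 for CYP1B1, 0.271 for TIPARP, 0.517 for CYP1A1, 0.972 for AHRR and 0.993 for NQO1).

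SLFN11, which blocks stressed replication forks, was also chosen after its values were seen. It had 5.67, 5.12 and 6.09 CPM with BSJ-03-123 and 4.31, 4.24 and 4.15 CPM with palbociclib, with no overlap, and 13.1 to 14.9 CPM in DMSO. The difference of 0.41 ± 0.11 (SE) did not pass the test (adjusted p = 0.173, edgeR).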
